A study of Saccharomyces cerevisiae with 2 samples.

Results

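The genes described here make amino acids or assimilate sulfur in budding yeast (Saccharomyces cerevisiae). They are 59 genes, named by symbol, out of 5656 genes that had a probe set with a single gene symbol on an Affymetrix expression array. Each of the 59 was represented by its probe set with the highest mean log2 signal. Total RNA came from 2 replicate cultures of a strain with histone H3 K4,36,79R, in which arginine replaces the lysines at positions 4, 36 and 79. The cells had grown in selective galactose medium, with wild-type H3 present as well, and were harvested after 18 hours in selective glucose medium, which repressed the wild-type H3 gene. The labels name neither the promoter that drove wild-type H3 nor the auxotrophic markers of the strain. The series was designed to find genes regulated by the mutant histone. Wild-type cultures and other times were not analysed here, so the values are levels in the mutant and the spread between its arrays, and no comparison between groups was made.

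Budding yeast can make every amino acid that proteins need from ammonium and sugar carbon, and takes its sulfur from sulfate. Most of these pathways share an activator, Gcn4, whose translation increases when uncharged tRNA accumulates (general amino acid control). Several also have regulators of their own, such as Leu3 for leucine, Lys14 for lysine and Met4 with Cbf1, Met31 and Met32 for sulfate and methionine. Many of the genes carry no essential function in rich medium, and HIS3, LEU2, TRP1, LYS2 and MET17 are often deleted in laboratory strains and used as selectable markers.

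Nearly all of the 59 genes gave clear signal, and TRP1 was the exception. On both arrays 58 of 59 exceeded the background set by 13 foreign probe sets (mouse genes and antisense bacterial controls), which lay at 1.86 on replicate 1 and at 1.69 on replicate 2. Of all 5656 genes, 98.7% did so, so passing it describes detection and says little about expression. The median signal of the 59 genes was 211.9, against 39.3 for all genes, and their range was 1.62 to 833.8. Probe sets differ in affinity and gene length was not corrected for, so these signals rank neither the genes nor the pathways. Signals are MAS5 values in arbitrary units, given below for replicate 1 and replicate 2 in that order, and a log2 difference is replicate 2 minus replicate 1. The replicates are separate cultures per the series' design text, and with 1 array on each side a difference has no test.

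**Figure D1:**
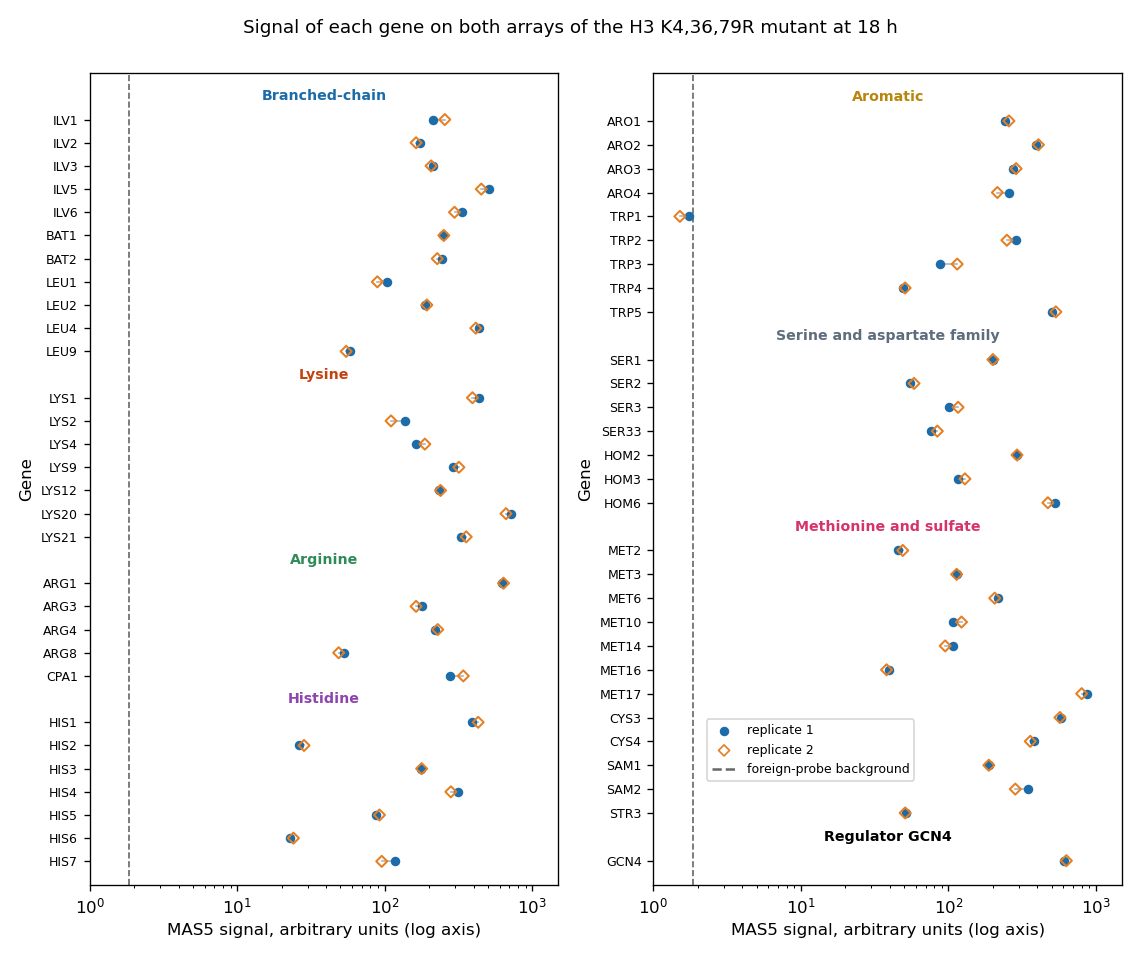
MAS5 signal (log axis, arbitrary units) of the 59 genes, by pathway, with replicate 1 as filled circles and replicate 2 as open diamonds. The dashed line is the higher of the background signals, 1.86. TRP1 lies left of it on both arrays and the other 58 genes lie between 22.9 and 868.3.

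Between the arrays the 59 genes moved little. Their median log2 difference was 0.00, against 0.03 for all 5656 genes, with 28 genes higher and 31 lower on replicate 2. Of all 5656 genes, 3191 were higher and 2465 lower, and the counts by pathway below can be read beside these. The limit used for counting was 0.32 in either direction. Only TRP3 passed it, 1 gene of 59, where 9.44% of all 5656 genes did. Most of that share comes from dim probe sets: 56 of the 59 genes averaged 32 or more, and among all 3279 genes that bright 3.84% passed the limit. LYS2 or CPA1 passed it as well under other scalings, and TRP3 itself was at 0.26 once the median of its 10 nearest bright probe sets (mean signal of 32 or more) was subtracted. The arrays agreed within 1.1-fold for 37 of the 59 genes, or 62.7%, against 66.5% of the 3279 brighter genes. The median coefficient of variation of the 59 genes was 4.91% (n = 2 arrays).

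The size of the difference, disregarding its direction, was not the same at every brightness. For the 11 genes with a mean from 64 to 128 the median absolute log2 difference was 0.19, against 0.09 for all 863 genes in that range. For the 22 genes at 256 or above it was 0.12, against 0.08 for all 440. In the other ranges the 59 genes had smaller differences than all genes: 0.07 against 0.09 from 128 to 256 (16 and 530 genes), 0.08 against 0.11 from 32 to 64 (7 and 1446 genes) and 0.11 against 0.15 under 32 (3 and 2377 genes). No test was made of these differences.

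**Figure D2:**
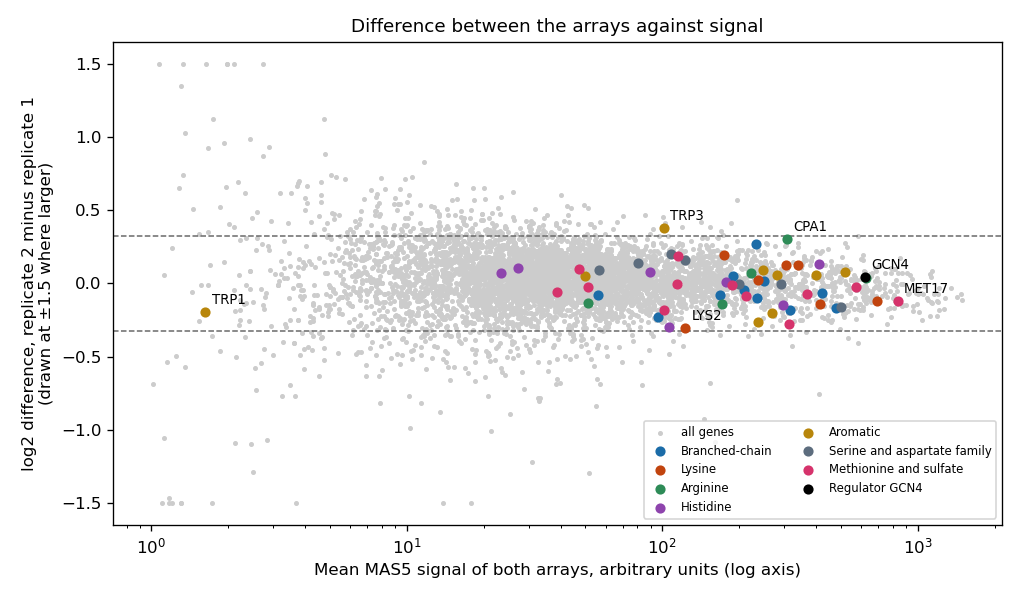
Log2 difference (replicate 2 minus replicate 1) against mean signal (log axis) for all genes averaging 1 or more (grey) and the 59 genes (coloured by pathway). The dashed lines mark 0.32 in either direction. TRP3, at 0.38, is the coloured point outside them, and dim genes spread more widely than bright ones.

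The branched-chain pathway makes isoleucine, valine and leucine, largely in mitochondria. Of its 11 genes 8 were lower on replicate 2, and log2 differences ran from -0.23 to 0.27 around a median of -0.08. ILV1, threonine deaminase, which commits carbon to isoleucine, gave 211.8 and 255.0. It was the gene of the pathway that differed most between the arrays, by 0.27. Acetolactate synthase, the next enzyme, has a catalytic subunit, ILV2, with 172.2 and 163.0, and a regulatory subunit, ILV6, with 336.0 and 296.8. Both subunits were lower on replicate 2, by log2 differences of -0.08 and -0.18. ILV5, the acetohydroxyacid reductoisomerase, gave 505.8 and 450.8, and ILV3, the dihydroxyacid dehydratase, gave 212.7 and 205.9. The last step is shared by BAT1, the mitochondrial aminotransferase, with 248.7 and 251.2, and BAT2, its cytosolic counterpart, with 243.0 and 226.7. BAT1 differed by 1.01-fold and BAT2 by 1.07-fold between the arrays.

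Leucine branches off through isopropylmalate. LEU4, the main isopropylmalate synthase, gave 432.0 and 413.8, and its isoenzyme gene LEU9 gave 57.7 and 54.7. The isoenzymes had nearly equal log2 differences, -0.06 and -0.08. LEU1, isopropylmalate isomerase, gave 104.1 and 89.0, a log2 difference of -0.23. LEU2, isopropylmalate dehydrogenase and a common plasmid marker, gave 186.1 and 192.8. It also had probe sets with 75.3 and 76.2 and with 45.5 and 42.6. The 3 probe sets of LEU2 thus differed far more from each other than any of them did between the arrays. The reason for that spread was not tested.

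The lysine genes encode the alpha-aminoadipate pathway of fungi. Of the 7 genes, 4 were higher and 3 lower on replicate 2, and the median log2 difference was 0.03. The entry enzyme, homocitrate synthase, has the isoenzyme genes LYS20, with 720.7 and 663.1, and LYS21, with 326.2 and 356.3. These isoenzymes differed in opposite directions, -0.12 and 0.13, while a probe set annotated to both gave 657.9 and 639.6. Sequence shared by the isoenzyme genes can bring signal of either transcript into these probe sets, and its share was not measured. LYS4, homoaconitase, gave 163.3 and 186.9, and LYS12, homoisocitrate dehydrogenase, gave 234.6 and 238.7. LYS2, the large aminoadipate reductase and also a marker gene, gave 136.2 and 110.2. Its log2 difference of -0.31 (1.24-fold) was the most negative of the 59 genes. The saccharopine dehydrogenases of the last steps, LYS9 with 291.5 and 317.8 and LYS1 with 432.9 and 392.8, differed by 0.12 and -0.14.

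In arginine synthesis CPA1 stood out among 5 genes whose median log2 difference was 0.04. CPA1, the small subunit of carbamoyl phosphate synthetase, gave 275.5 and 340.4, a log2 difference of 0.31 (1.24-fold). The CPA1 transcript begins with an upstream reading frame for the arginine attenuator peptide, which the annotation lists as a gene of its own, YOR302W. YOR302W has its own probe set, which gave 161.9 and 193.7, a log2 difference of 0.26. It is no member of the gene set and was looked up after the values of CPA1 had been seen. Probe sets for the upstream frame and for the CPA1 coding gene were both higher on replicate 2 by a like amount. ARG1, argininosuccinate synthetase and a widely used Gcn4 target, gave 621.5 and 637.7. ARG4, argininosuccinate lyase, gave 217.7 and 228.5, and ARG3, ornithine carbamoyltransferase, gave 179.7 and 163.0. ARG8, the mitochondrial acetylornithine aminotransferase, gave 53.3 and 48.7. Among these 4 genes ARG3 differed most, by -0.14.

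In histidine synthesis 5 of 7 genes were higher on replicate 2, and the median log2 difference was 0.07. HIS1, the ATP phosphoribosyltransferase at its start, gave 391.1 and 429.5. HIS4, which carries several of the early and the last steps, gave 311.1 and 280.4, and HIS7, the imidazole glycerol phosphate synthase, gave 117.1 and 95.3. These were the histidine genes lower on replicate 2, with log2 differences of -0.15 and -0.30. HIS3, imidazoleglycerol-phosphate dehydratase and a marker gene, gave 176.1 and 177.8. HIS3 had another probe set with 94.5 and 82.3, so its probe sets gave log2 differences of 0.01 and -0.20. HIS5, the aminotransferase, gave 87.2 and 92.0. HIS2, the histidinol phosphatase, gave 26.3 and 28.3, and HIS6, the isomerase, gave 22.9 and 24.0. With TRP1, HIS2 and HIS6 were the 3 genes with a mean signal under 32.

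The aromatic pathway runs from the shikimate enzymes to tryptophan. Of its 9 genes, 6 were higher on replicate 2, and the median log2 difference was 0.06. Its entry enzyme, DAHP synthase, exists as ARO3, inhibited by phenylalanine, with 275.3 and 287.2, and ARO4, inhibited by tyrosine, with 258.1 and 214.5. These isoenzyme genes went in opposite directions, 0.06 and -0.27. ARO1, the pentafunctional protein of the middle steps, gave 240.8 and 256.9, and ARO2, chorismate synthase, gave 390.6 and 407.0. TRP2 and TRP3 encode the subunits of anthranilate synthase, and also differed in direction. TRP2 gave 286.7 and 248.8, a log2 difference of -0.20. TRP3, whose protein is also indoleglycerol phosphate synthase, gave 88.0 and 114.5, a log2 difference of 0.38. The difference of TRP2 minus that of TRP3, -0.58, was the widest gap among the 9 subunit or isoenzyme pairs compared. TRP4, anthranilate phosphoribosyltransferase, gave 49.1 and 50.8, and TRP5, tryptophan synthase, gave 505.6 and 534.3.

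TRP1, phosphoribosylanthranilate isomerase, gave 1.73 and 1.51, below the background on each array. Its neighbours on chromosome IV were above background: SOK1 gave 37.9 and 34.4, and GAL3, whose product senses galactose, gave 13.8 and 11.8. The low signal was thus limited to the TRP1 probe set among the measured genes at that place. Whether the strain carries a TRP1 deletion is not stated in the sources used here. Among the other loci often used as markers, HIS3, LEU2, LYS2 and MET17 were above background, as were URA3 of pyrimidine synthesis, with 87.4 and 90.2, ADE2 of purine synthesis, with 500.6 and 544.4, and CAN1, the arginine permease, with 66.1 and 66.0. A probe set cannot tell a chromosomal from a plasmid copy.

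Serine synthesis and the start of the aspartate family showed the highest median log2 difference of the 7 pathways as deposited, 0.09, still smaller than a 1.1-fold difference. This rank depended on the scaling: with quantile normalization the aromatic median was higher, and with loess both the arginine and the aromatic medians were. SER3 and SER33, isoenzymes of phosphoglycerate dehydrogenase, gave 100.97 and 116.2, and 76.2 and 84.0. Both were higher on replicate 2, by 0.20 and 0.14. SER1, the phosphoserine aminotransferase, gave 200.4 and 200.1, the closest agreement of the 59 genes. SER2, the phosphoserine phosphatase, gave 54.8 and 58.4. HOM3, aspartate kinase, gave 115.4 and 129.2, HOM2, the semialdehyde dehydrogenase, gave 292.6 and 291.5, and HOM6, homoserine dehydrogenase, gave 527.5 and 471.7. HOM3 and HOM6 thus differed in direction, with log2 differences of 0.16 and -0.16, at the start and the end of the route from aspartate to homoserine.

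**Figure D3:**
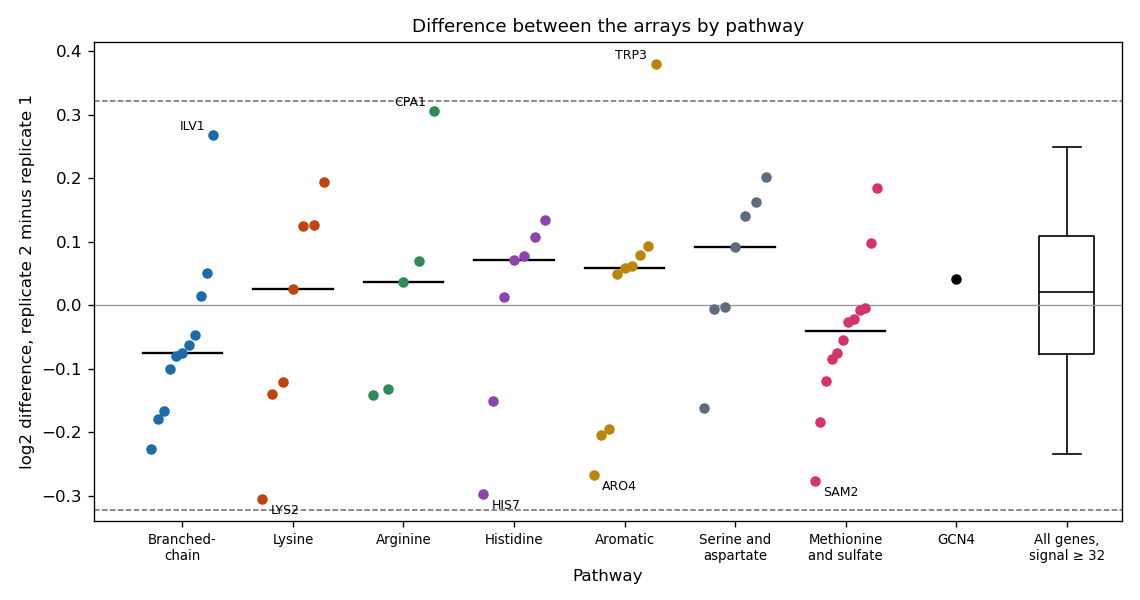
Log2 difference (replicate 2 minus replicate 1) of each gene, by pathway. Short bars are pathway medians, dashed lines mark 0.32 in either direction, and the box at the right shows all 3279 genes averaging 32 or more (quartiles, with whiskers to the 5th and 95th percentiles). The named genes are the 7 that were more than 1.2-fold apart, of which TRP3 alone is outside these lines. The 1.2-fold mark serves for naming only, and the share of all genes past it was not counted.

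Sulfate is activated, reduced to sulfide and joined to a carbon chain. Of the 12 genes for methionine and sulfate, 10 were lower on replicate 2, where 2465 of all 5656 genes were. The median log2 difference of the 12 was nevertheless small, -0.04. Among the 10, MET3, SAM1, STR3 and CYS3 differed by only -0.005, -0.008, -0.02 and -0.03. CYS3 was higher on replicate 2, by 0.02, under quantile normalization and under loess. MET3, ATP sulfurylase, gave 113.9 and 113.6, MET14, the APS kinase, gave 107.9 and 94.9, and MET16, the PAPS reductase, gave 39.5 and 38.0. MET10, a subunit of sulfite reductase, gave 107.8 and 122.6. In the deposited values MET10 was, with MET2, 1 of the 2 genes of this pathway higher on replicate 2. Its partner subunit MET5, which is not among the 59, gave 105.5 and 127.9, so that both subunit genes were higher there, by 0.19 and 0.28. MET17, the sulfhydrylase that joins sulfide to the carbon chain, gave 868.3 and 799.2. MET2, which makes that chain by acetylating homoserine, gave 45.8 and 49.0.

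Downstream of homocysteine, MET6, methionine synthase, gave 218.2 and 205.7. The enzymes that pass sulfur on to cysteine were CYS4, cystathionine beta-synthase, with 377.5 and 358.4, and CYS3, cystathionine gamma-lyase, with 579.6 and 569.1. STR3, cystathionine beta-lyase, which works in the opposite direction, gave 51.6 and 50.9. The largest difference among these 4 genes was 1.06-fold, for MET6. S-adenosylmethionine, the methyl donor of the histone methyltransferases, is made by isoenzymes encoded by SAM1 and SAM2. SAM1 gave 188.7 and 187.7, and SAM2 gave 343.6 and 283.6. SAM2 was 1.21-fold lower on replicate 2 while SAM1 was within 1.01-fold. A probe set annotated to both gave 707.4 and 675.9, a log2 difference of -0.07, which lies between them. As with LYS20 and LYS21, shared sequence can bring signal of either transcript into these probe sets, and its share was not measured.

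GCN4 itself gave 611.4 and 629.5, a log2 difference of 0.04. Because Gcn4 is controlled mainly at translation, this transcript level does not give the level of the protein. The other regulators of these pathways, a list of 20, were mostly dim: 9 averaged 32 or more, and 4 of 20 passed the limit of 0.32, 3 of them lower on replicate 2, where 9.44% of all genes passed it. Of the 9 brighter regulators 2 passed, against 3.84% of all genes that bright. These 2, GCN2 and CHA4, averaged 32.6 and 33.0, just over the filter of 32. Of all genes averaging from 32 to 64, 5.67% passed. GCN2, the kinase that senses uncharged tRNA, gave 28.5 and 36.7, and GCN20, which helps to activate it, gave 103.8 and 123.8. LEU3 gave 20.7 and 17.5, LYS14 gave 23.6 and 28.3, and MET4 gave 44.1 and 49.8. MET31 gave 17.0 and 16.5, MET32 gave 30.0 and 26.3, and CBF1 gave 29.3 and 19.0. CBF1 was 1.54-fold lower on replicate 2, and CHA4, the activator of serine and threonine breakdown, was 1.75-fold lower, with 42.0 and 24.0. BAS1, which with Pho2 activates histidine and purine genes, completes the 4, with 17.8 and 14.0.

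Of 25 measured synthesis genes outside the 59, 0 passed the limit, which 9.44% of all genes and 3.84% of the bright ones passed, and log2 differences ran from -0.28 for ARO7, chorismate mutase (59.6 and 49.0), to 0.21 for LYS5 (42.2 and 48.9). GLN1, glutamine synthetase, gave 498.1 and 414.7. Of 15 genes for uptake of amino acids and sulfate, 0 passed it. Among them MUP1, the high-affinity methionine permease, gave 227.7 and 261.0, SUL2, a sulfate permease, gave 54.3 and 44.7, and MUP3 gave 35.0 and 31.2. Of the further sulfur genes 3 of 13 (23.1%) passed it, and 1 of the 11 that averaged 32 or more. STR2, cystathionine gamma-synthase, is the bright one, with 45.5 and 60.2 (1.32-fold higher on replicate 2), and SAM4, a homocysteine methyltransferase, gave 178.1 and 197.7. The others, MHT1 (19.2 and 14.7) and MET8 (15.8 and 12.4), were dim, lower on replicate 2, and are named because they complete the count.

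Near some of the 59 genes, probe sets with neighbouring numbers also differed between the arrays, in some cases with the same sign and in others not. Of the 3 genes on chromosome II, all 3 were lower on replicate 2, LYS2 by -0.31, HIS7 by -0.30 and ARO4 by -0.27. The median over the 243 brighter genes of chromosome II was 0.01. All 5 of the set's genes on chromosome X were lower too, from -0.005 to -0.16, where the median over its 204 brighter genes was 0.03. All 3 on chromosome XII were lower, down to -0.17, and the median over its 287 brighter genes was -0.06. On chromosomes VI and VIII, with 2 genes of the set each, all were higher. HIS7 and ARO4 are adjacent genes with consecutive probe set numbers, 7113 and 7114. Of the 10 probe sets within 5 numbers of HIS7, 8 were also lower, down to -0.77 for GPX2, -0.61 for ISW1 and -0.51 for RRT2. The 8 include ARO4 itself. GPX2 (12.9 and 7.6) and ISW1 (28.5 and 18.7) were dim, and RRT2 gave 51.4 and 36.0. The median of the 10 nearest bright probe sets (those averaging 32 or more, which can lie more than 5 numbers away) was -0.08 for both HIS7 and ARO4. Each of these genes is among the 10 of the other. Around LYS2 (7251) the 4 preceding probe sets had log2 differences from -0.28 for YSA1 to -0.80 for an unnamed dim probe set, and the difference was -0.08 at TKL2, the next number. Of the 10 probe sets within 5 numbers of LYS2, 6 were also lower. Over the 10 nearest bright probe sets the median was 0.02, which gives those bright neighbours no clear direction.

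TRP3, like HIS7, had the sign of most of its neighbours, here higher on replicate 2. Of the 10 probe sets around it, 8 were higher on replicate 2, among them UBA1 at 0.26 and STE6 at 0.28, and the median of its 10 nearest bright probe sets was 0.12. Around ILV1, 6 of 10 were higher, by 0.26 and 0.35 for the 2 numbers before it and 0.20 for the next one. Those 3 probe sets were dim, and the median of the 10 nearest bright ones was -0.06, opposite in sign to ILV1. Around CPA1 6 of 10 were higher too, but the numbers on either side were unequal, 0.26 for YOR302W and 0.08 for ISW2. The 6 include YOR302W, which lies on the CPA1 transcript and is no independent neighbour. SAM2 went against its surroundings, where 4 of 10 probe sets were lower and the median of the 10 nearest bright ones was 0.11. HIS7 and ARO4 are neighbours both on the chromosome and in the numbering, and the parts of gene position and of probe numbering were not tested.

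Over the 56 brighter genes of the set, 38 (67.9%) had the same sign as the median of their 10 nearest bright probe sets, against 62.8% of the 3279 brighter genes. Pearson's r between a gene's difference and that median was 0.31 over the 56 genes and 0.26 over the 3279. Both are correlations across genes of the same 2 arrays, which are not independent replicates. The part of such a regional pattern in any gene's difference was not tested.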

How the data were processed

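Total RNA from 2 replicate cultures was measured on 1-colour Affymetrix arrays, 1 array each, in 1 group. Each array has 9335 deposited intensity values on a linear scale, for which the submitters' processing notes name MAS5. Its version and scaling target are not stated in those notes, and detection calls were not used here. MAS5 subtracts mismatch signal and scales each array, which makes dim values unstable.

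The platform annotation, which can be old, gave 6504 probe sets a single symbol, for 5656 genes. All 59 symbols matched the RefSeq table (assembly R64), which was used for names, chromosomes and gene order only. Signals were used as deposited, on the log2 scale for differences. Background was the 95th percentile of 13 foreign probe sets. No test between groups was possible. Arrays limit the precision, and each spread rests on 2. Steps were tested on simulated data. The members and lists were chosen with earlier results of these data known. Every one of the 59 genes is named, as are fixed regulators, marker loci and the 3 brighter genes with the largest difference in each further list. Promoter motifs and protein composition, planned beside these values, were not analysed here. Alternatives were median centring, quantile and loess normalization (limma 3.58.1, R 4.3.3; loess span 0.4), averaging all probe sets of a gene, a filter at a mean of 32, an offset of 50, running medians along the probe numbering, other backgrounds and 1 array alone. Python 3.11.15, pandas 2.3.3 and numpy 2.4.6 were used.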

Additional observations from a re-analysis of the deposited data

How the results depend on the processing

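The count of genes past a log2 difference of 0.32 rests on values close to that limit. It was 1 (TRP3) as deposited, 2 with median centring or with the planned running median along the probe numbering subtracted (LYS2 and TRP3), and 2 with quantile normalization or loess (CPA1 and TRP3). It was 0 with an offset of 50, which shrinks every difference by construction, and 1 in the others planned. Subtracting the median of the 10 nearest probe sets averaging 32 or more, chosen after the data were seen, gave 4 (ILV1, LEU1, LYS2 and SAM2) and left TRP3 at 0.26. The median log2 difference lay between -0.04 and 0.01 and has no settled direction: it was 0.01 with quantile normalization and with loess. Of the 59 genes, 5 changed sign under at least 1 of median centring, quantile normalization and loess, and of the 7 more than 1.2-fold apart 0 did. How many of all genes were more than 1.2-fold apart was not counted, so those 7 have no share to be read beside. The median signal was 205.9 to 212.7 with 1 array alone. The count above background was 58 in every alternative run. No paired analysis was possible because both arrays belong to the same group. Of all genes with a signal under 32, 17.2% passed the limit, but of the 59 genes 3 were that dim and 0 of those passed.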
